A study of Mus musculus with 12 samples.

Results

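The genes described here are 10 genes of the extracellular matrix of mouse epididymal white adipose tissue (eWAT), namely the structural glycoproteins Fn1 and Fbn1, the matricellular proteins Sparc, Tnc, Postn and Thbs1, the proteoglycan Bgn, and the lysyl oxidases Lox, Loxl1 and Loxl2. They were chosen by gene symbol, and the deposited transcripts of each gene were summed. This gave 10 of 22947 genes, and all 10 were among the 12775 genes that passed the filter on low values. The study fed male C57BL/6J mice for 16 weeks, up to 21 weeks of age, and sequenced the mRNA of whole eWAT from 3 mice per group, which the methods call representative. The ND group received a normal diet and the HFD group a high-fat diet. The CLE group received the same high-fat diet with 1.5% (w/w) of an ethanol extract of chrysanthemum leaf, and the LU group the high-fat diet with 0.003% (w/w) luteolin, a flavonoid found in this plant. HFD feeding is thus shared by the HFD, CLE and LU groups, and the HFD mice serve as the controls of both supplements.

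The extracellular matrix surrounds each adipocyte, and it is remodelled when fat tissue expands. Fibronectin, fibrillin-1 and the collagens form its fibres, and matricellular proteins such as SPARC, tenascin C, periostin and thrombospondin 1 bind cells and fibres without forming the main scaffold. Lysyl oxidases are copper-dependent enzymes that oxidize lysines of collagen and elastin, from which the cross-links of the fibres then form.

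Values are FPKM as the authors deposited them, that is, fragments per kilobase of transcript, scaled to the fragments mapped in the library. With no read counts, the depth is unknown. Adipocyte markers were abundant in all groups, and Cidec, a lipid droplet protein, had a mean between 1920 and 3330 FPKM per group. The summed FPKM of 8 adipocyte markers was between 28700 and 29900 in the ND mice, between 15400 and 17500 in the HFD mice, between 24400 and 26900 in the CLE mice and between 23000 and 28500 in the LU mice. The labels mark 4 libraries with the letter R, which are LU mouse 2, CLE mouse 4 and ND mice 3 and 4. The column headers of these 4 libraries, and of no other library used, also end in a shared number that is not explained. As no library of the HFD group has the letter R, HFD cannot be compared with another group among the marked libraries. For ND mouse 4 a column named MD4 was taken, which is an inference from its number and the letter. In whole tissue, fewer cells of a type and less RNA per cell cannot be told apart. The methods state that each mouse was housed alone, and nothing in the labels ties mice to litters. The p-values of the linear fit (limma) rest on the spread between mice within groups, pooled over the 4 groups of 3 mice.

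The first comparison, HFD against ND, addressed what the high-fat diet changed. Of the 10 genes, 8 rose, namely Fn1, Fbn1, Bgn, Sparc, Loxl1, Tnc, Postn and Loxl2, and none fell, while Thbs1 and Lox did not pass the test. The call asked for a fold change above 1.5 and for an adjusted p (limma, Benjamini-Hochberg over all genes tested) below 0.05. Of all genes tested, 14.9% were called higher and 10.8% lower. The HFD and ND mice did not overlap in 8 of the 10 genes, and in 59.5% of all genes tested. The median log2 fold change was 0.92 over the 10 genes and -0.02 over all genes tested. All fold changes are computed on log2(FPKM + 1), and so low genes such as Tnc appear to change by less than they do.

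**Figure D1:**
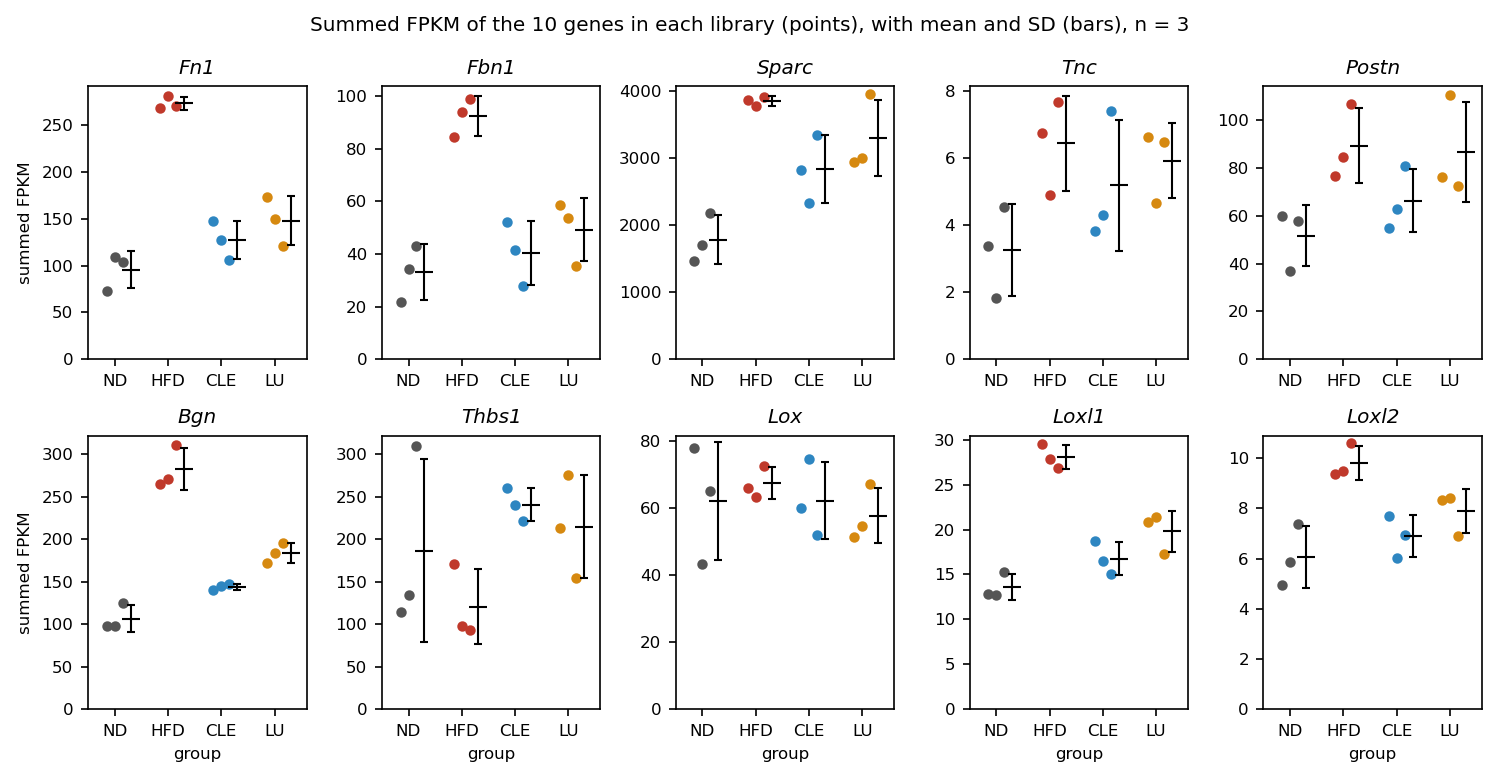
Summed FPKM (vertical axes, each from 0) of the 10 genes in the 3 libraries of each group (points), with the mean and SD (bars). The 3 HFD mice sit above the 3 ND mice for every gene except Thbs1 and Lox, and the CLE mice sit below the HFD mice for Fn1, Fbn1, Sparc, Bgn, Loxl1 and Loxl2.

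Fn1 encodes fibronectin, which is laid down early in a forming matrix and binds integrins and collagen (chromosome 1, 71585520 to 71653200, minus strand, in GENCODE M21 on GRCm38, the source of all gene positions). Its level was 73.1, 109.6 and 104 FPKM in ND mice 2, 3 and 4, and 269, 282 and 271 FPKM in HFD mice 12, 15 and 18. Every HFD mouse was far above the highest ND mouse, and the HFD mice differed little among themselves. The log2 fold change was 1.53 (SE 0.17, limma adjusted p = 2.69e-05). Fbn1 encodes fibrillin-1, the main protein of the microfibrils on which elastic fibres are built (chromosome 2, 125300594 to 125507993, minus strand). It reached 21.7, 34.3 and 43.0 FPKM in the ND mice, in the same order, against 84.3, 94.1 and 98.9 FPKM in the HFD mice. These groups were also well separated, with a log2 fold change of 1.51 (SE 0.27, limma adjusted p = 0.000749).

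Bgn encodes biglycan, a small leucine-rich proteoglycan that binds collagen and growth factors (chromosome X, 73483602 to 73495933, plus strand). The ND mice had 98.0, 97.4 and 124 FPKM and the HFD mice 265, 271 and 311 FPKM. Bgn thus had the smallest adjusted p of the 10 genes, with a log2 fold change of 1.40 (SE 0.11, limma adjusted p = 1.79e-06), although Fn1 and Fbn1 changed by more.

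Sparc encodes a collagen-binding protein also called osteonectin (chromosome 11, 55394500 to 55423183, minus strand), and it had the highest level of the 10 genes in each library. It was 1465, 1707 and 2180 FPKM in the ND mice and 3877, 3774 and 3921 FPKM in the HFD mice. The HFD mice lay close together and clear of the ND mice, with a log2 fold change of 1.13 (SE 0.17, limma adjusted p = 0.000203). Postn encodes periostin, a partner of collagen in fibre assembly (chromosome 3, 54361109 to 54391037, plus strand). Its level was 60.0, 37.0 and 57.7 FPKM in the ND mice and 76.6, 84.5 and 106.7 FPKM in the HFD mice. The groups did not overlap, although the mice within each were further apart than for Sparc, and the log2 fold change was 0.80 (SE 0.22, limma adjusted p = 0.0108).

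Tnc encodes tenascin C, a large glycoprotein that is scarce in most resting adult tissues (chromosome 4, 63959785 to 64047015, minus strand), and its group means were the lowest of the 10 genes. ND mice had 3.38, 1.83 and 4.56 FPKM and HFD mice 6.75, 4.91 and 7.68 FPKM. The groups did not overlap, but by a small margin, and the log2 fold change was 0.84 (SE 0.27, limma adjusted p = 0.0201). Thbs1 encodes thrombospondin 1, which binds CD36 and CD47 and can release TGF-beta from its latent form (chromosome 2, 118111876 to 118127133, plus strand). It was 114, 134 and 310 FPKM in ND mice 2, 3 and 4, and 171, 97.9 and 92.5 FPKM in HFD mice 12, 15 and 18. The ND mice were far apart and the groups overlapped, with a log2 fold change of -0.54 (95% confidence interval -1.30 to 0.23, limma adjusted p = 0.221). Without ND mouse 4 the Thbs1 difference was -0.10, and with array weights in limma, which down-weight variable libraries, it was -0.88 and passed the test (adjusted p = 0.0434).

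Among the 3 lysyl oxidases chosen here, Loxl1, which is tied to elastin assembly, rose most (chromosome 9, 58287738 to 58313186, minus strand). It was 12.8, 12.7 and 15.3 FPKM in the ND mice and 29.6, 27.9 and 26.9 FPKM in the HFD mice, with no overlap. The log2 fold change was 1.00 (SE 0.11, limma adjusted p = 2.51e-05). Loxl2, which acts on basement membrane and fibrillar collagens (chromosome 14, 69609068 to 69695834, plus strand), was at 4.94, 5.86 and 7.39 FPKM in the ND mice and 9.35, 9.49 and 10.6 FPKM in the HFD mice. This separation was narrower, with a log2 fold change of 0.63 (SE 0.13, limma adjusted p = 0.00212). Lox, the founding member of the family (chromosome 18, 52516067 to 52529867, minus strand), was at 78.0, 43.2 and 65.2 FPKM in the ND mice and 66.1, 63.4 and 72.7 FPKM in the HFD mice. All HFD mice lay within the range of the ND mice, and the log2 fold change of 0.15 had a 95% confidence interval from -0.28 to 0.58 (limma adjusted p = 0.542).

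With transcripts summed per gene, the calls of Tnc, Postn and Loxl2 were the less firm ones. Fn1 was no longer called when its row with the highest mean stood for the gene, as given below. Without rows of assembled transcripts, Tnc was at 0.43 (limma adjusted p = 0.214) and Loxl2 did not pass the filter. Tnc lost its call without ND mouse 3, HFD mouse 12 or HFD mouse 18 (limma adjusted p up to 0.0789), and Postn and Loxl2 fell under the fold threshold without ND mouse 3 (0.58), and without ND mouse 2 (0.51) or HFD mouse 18 (0.58), respectively. With the letter R as a covariate, Tnc (0.80, limma adjusted p = 0.0651) and Postn (0.65, adjusted p = 0.06) were not called, and Loxl2 fell under the fold threshold with quantile normalization (0.55) or array weights (0.53). Without the libraries that carry the letter, ND is mouse 2 alone, assumed to vary like the other groups, and Tnc was then at 0.75 (adjusted p = 0.122) and Postn at 0.55 (adjusted p = 0.192).

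The second comparison, CLE against HFD, addressed what the extract changed on the same diet. Fn1, Fbn1, Bgn and Loxl1 fell and Thbs1 rose, so 4 of the 10 genes were lower and 1 higher, where 10.1% of all genes tested were called lower and 6.33% higher. CLE and HFD mice did not overlap in 7 of the 10 genes, against 50.6% of all genes tested. The median log2 fold change was -0.46 over the 10 genes and 0.01 over all genes tested. With the third comparison, LU against HFD, this one shares the 3 HFD mice, so both move with them.

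In CLE mice 2, 4 and 11, Fn1 was at 147, 128 and 106.5 FPKM, each was below every HFD mouse, and the log2 fold change was -1.11 (limma adjusted p = 0.000563). Fbn1 was at 52.1, 41.4 and 27.7 FPKM in these mice, and fell by 1.22 on the log2 scale (limma adjusted p = 0.0051). The order of the 3 mice was the same for both genes, and the highest was still below every HFD mouse. Bgn was nearly the same in the 3 mice, at 140, 145 and 147 FPKM, with a log2 fold change of -0.96 (adjusted p = 7.06e-05, limma). For Loxl1 the mice had 18.7, 16.5 and 15.1 FPKM, also clear of the HFD mice, and the log2 fold change was -0.72 (limma adjusted p = 0.000568).

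Thbs1 went the other way. Its level was 260, 240 and 221 FPKM in the CLE mice, all above the highest HFD mouse, with a log2 fold change of 1.04 (SE 0.35, limma adjusted p = 0.0381). This call did not hold without HFD mouse 15, HFD mouse 18, LU mouse 2 or any of the 3 CLE mice (adjusted p up to 0.126), nor with no filter on low values (adjusted p = 0.081), with R as a covariate (0.95, adjusted p = 0.0734) or without the libraries that carry it (adjusted p = 0.0523). Among markers that moved with it, Acta2, the smooth muscle actin, was also called higher (0.88, limma adjusted p = 0.0163), and the 5 tested smooth muscle and pericyte markers were otherwise not called. The summed level of the 6 listed smooth muscle and pericyte markers was between 178 and 202 FPKM in the HFD mice and between 271 and 310 FPKM in the CLE mice. In the same comparison 7 of 8 adipocyte and 3 of 6 endothelial markers were also called higher, and all 9 macrophage markers lower. The part of any of these cells in the Thbs1 difference was not tested.

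The remaining genes did not pass. Sparc was at 2826, 2332 and 3345 FPKM in the CLE mice, all below the HFD mice, with a log2 fold change of -0.46 (adjusted p = 0.0539, limma). Loxl2, at 7.71, 6.04 and 6.93 FPKM, passed the p threshold but not the fold (-0.46, limma adjusted p = 0.0196). Postn was at 55.0, 62.9 and 80.8 FPKM and Tnc at 3.84, 4.31 and 7.42 FPKM, and both overlapped with the HFD mice. Their log2 fold changes of -0.43 (95% confidence interval -0.91 to 0.06) and -0.29 (-0.87 to 0.29) left room for a fall or for little change. Lox, at 60.1, 74.5 and 51.9 FPKM, differed by -0.13 (95% confidence interval -0.56 to 0.30).

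The third comparison, LU against HFD, addressed what luteolin changed. Fn1, Fbn1 and Bgn fell, which were 3 of the 10 genes, and none rose, where 7.64% of all genes tested were called lower and 4.81% higher. LU and HFD mice did not overlap in 5 of the 10 genes, against 47.6% of all genes tested. The median log2 fold change was -0.26 over the 10 genes and 0.03 over all genes tested.

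Fn1 was at 173, 149.7 and 122 FPKM in LU mice 2, 3 and 8, below every HFD mouse, with a log2 fold change of -0.90 (adjusted p = 0.00331, limma). Fbn1 was at 58.5, 53.7 and 35.5 FPKM (-0.92, limma adjusted p = 0.0259), and Bgn at 172, 183 and 195 FPKM (-0.62, limma adjusted p = 0.00184). As in the CLE mice, Fn1 and Fbn1 had the same order over the 3 mice, while Bgn was lowest where Fn1 was highest. The Fbn1 call was lost without LU mouse 8 or any of the 3 HFD mice (adjusted p up to 0.0891), and with no filter on low values (adjusted p = 0.0572). Bgn fell just under the fold threshold without HFD mouse 18 (-0.55), without LU mouse 2 or all libraries with the letter R (both -0.57), with its transcript of the highest mean (-0.49) and without assembled rows (-0.54). Without HFD mouse 18, only 1 of the 10 genes remained called.

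Loxl1, at 20.8, 21.4 and 17.2 FPKM in the LU mice, lay below the HFD mice but changed by less than the fold threshold (-0.49, limma adjusted p = 0.00783). Loxl2 was at 8.34, 8.43 and 6.89 FPKM, also below the HFD mice, with a log2 fold change of -0.29 (adjusted p = 0.13, limma). Thbs1 had 213, 276 and 155 FPKM and overlapped with HFD mouse 12, and its log2 fold change of 0.84 did not pass (limma adjusted p = 0.0944). Sparc was at 2943, 3005 and 3952 FPKM, with LU mouse 8 above every HFD mouse. Postn had 76.3, 110.5 and 72.6 FPKM, Tnc 6.64, 4.65 and 6.5 FPKM and Lox 51.4, 54.8 and 67.1 FPKM, and all overlapped with the HFD mice. The log2 fold changes of these last 4 genes lay between -0.24 for Sparc and -0.06 for Postn (limma adjusted p between 0.321 and 0.871).

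**Figure D2:**
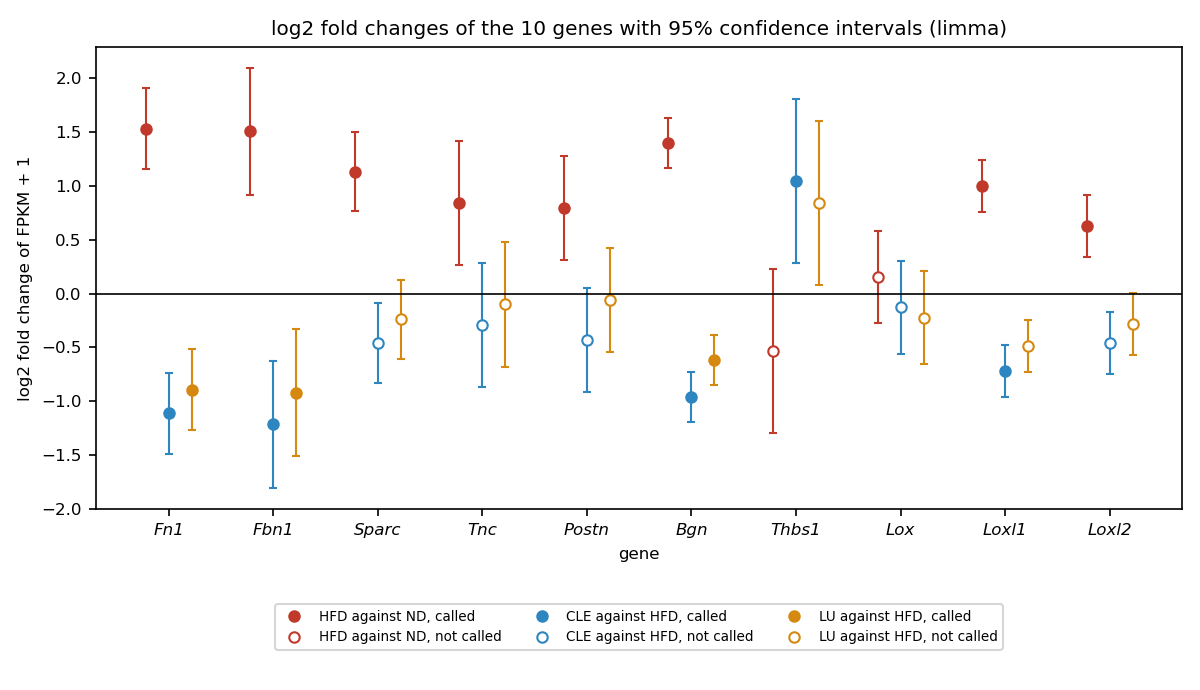
Log2 fold changes of FPKM + 1 (vertical axis) of the 10 genes in the 3 main comparisons, with 95% confidence intervals from limma, where filled points were called and open points were not. Fn1, Fbn1 and Bgn are called in all 3 comparisons, higher in HFD against ND and lower in both others, while Thbs1 is at -0.54, 1.04 and 0.84 and Lox stays between -0.23 and 0.15.

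The 2 supplements were also compared with each other, at the doses given, which differ. Of the 10 genes, 0 were called in limma, and of all genes tested 0.00783% were (1 gene). At an unadjusted p under 0.05 limma gave 1 of the 10 genes and 672 genes in all. Bgn was that gene, lower in every CLE mouse than in any LU mouse, with a log2 fold change of -0.35 (95% confidence interval -0.58 to -0.11, limma unadjusted p = 0.00746, adjusted p = 0.891). For Fn1 the difference was -0.22 (95% confidence interval -0.59 to 0.16) and for Fbn1 -0.29 (-0.88 to 0.30). Loxl1 differed by -0.23 (-0.47 to 0.02), so the extract and luteolin were not shown to differ for these genes, nor to act alike. The interval for Thbs1 (0.20, from -0.57 to 0.96) was the widest.

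Against the ND group, Sparc remained higher in the CLE mice (0.67, limma adjusted p = 0.0436), and it was the 1 gene of the 10 called, where 2.06% of all genes tested were called higher and 0.853% lower. Bgn passed the p threshold only (0.44, limma adjusted p = 0.0399). In the LU mice, Sparc (0.89, limma adjusted p = 0.00652), Bgn (0.79, adjusted p = 0.00163), Postn (0.74, adjusted p = 0.0492) and Fn1 (0.63, adjusted p = 0.0327) were higher than in the ND mice. These were 4 of the 10 genes, where 4.97% of all genes tested were called higher and 1.62% lower. Only the LU calls of Sparc and Bgn held when each library in turn was left out. Postn held in 2 of 12 such fits, Fn1 in 9, and Sparc in the CLE mice in 3. The Sparc call in CLE was lost, among others, without CLE mouse 11 (0.54, adjusted p = 0.137) and that of Fn1 in LU without ND mouse 2 (0.46, adjusted p = 0.106).

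The order of the groups thus differed between the genes. Fn1, Fbn1, Bgn, Loxl1 and Loxl2 had their lowest mean in ND, then CLE, then LU, and their highest in HFD. For Fn1 the means were 95.6 ± 19.7 (SD, n = 3), 127 ± 20.4, 148 ± 25.9 and 274 ± 7.02 FPKM, where ND overlapped with CLE and CLE with LU, and only HFD stood clear of its neighbour. For Bgn the means were 107 ± 15.3, 144 ± 3.51, 183 ± 11.4 and 282 ± 24.8 FPKM, with no overlap between any neighbours. Sparc, Tnc and Postn followed the same order of means but with LU and HFD overlapping, as for Postn at 86.5 ± 20.9 and 89.3 ± 15.6 FPKM. Thbs1 was lowest in HFD (121 ± 43.9 FPKM) and highest in CLE (240 ± 19.4 FPKM), and the ND mice lay between 114 and 310 FPKM. Lox means lay between 57.7 ± 8.23 FPKM in LU and 67.4 ± 4.80 FPKM in HFD, and all groups overlapped.

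The upstream bases of 3 genes that rose together in HFD are given here so that their promoters can be read side by side. RefSeq start sites (GRCm38.p6) were used for 5 of the 10 genes. The windows of 250 bases before the start of Bgn, Postn and Tnc printed here contain no annotated exon. Postn and Tnc each have another start site, whose window is not printed. The other Tnc window (start 64046936) holds an annotated exon, and the other Postn window (start 54359267) holds none. Each printed window runs 5' to 3' towards the start site, and capitals mark TATAAA and GGGCGG on either strand.
Bgn (chrX:73483351-73483600, plus strand): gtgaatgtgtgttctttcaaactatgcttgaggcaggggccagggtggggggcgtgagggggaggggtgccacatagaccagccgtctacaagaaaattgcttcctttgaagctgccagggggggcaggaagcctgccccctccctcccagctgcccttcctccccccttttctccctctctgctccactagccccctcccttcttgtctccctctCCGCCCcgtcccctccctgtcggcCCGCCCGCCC
Postn (chr3:54360857-54361106, plus strand): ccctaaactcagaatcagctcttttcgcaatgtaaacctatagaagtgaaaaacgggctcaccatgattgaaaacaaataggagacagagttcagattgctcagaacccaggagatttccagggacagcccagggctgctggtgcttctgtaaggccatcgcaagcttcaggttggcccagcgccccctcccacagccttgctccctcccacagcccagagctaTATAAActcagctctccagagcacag
Tnc (chr4:64047016-64047265, minus strand): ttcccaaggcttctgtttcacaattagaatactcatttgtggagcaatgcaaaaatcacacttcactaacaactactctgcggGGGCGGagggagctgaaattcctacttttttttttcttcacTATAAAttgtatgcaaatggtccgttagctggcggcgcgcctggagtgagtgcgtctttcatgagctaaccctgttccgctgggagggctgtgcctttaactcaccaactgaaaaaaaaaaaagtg

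The Bgn window holds GGGCGG 3 times, all on the opposite strand and all within 34 bases of the start, with the last pair sharing letters, and it holds no TATAAA. The printed Postn window has TATAAA 26 to 21 bases before its start and no GGGCGG. The window of the other Postn start site holds neither, and its GC content was 40.4%. Tnc has TATAAA 126 to 121 bases and GGGCGG 167 to 162 bases before the start. Of 32851 RefSeq windows of this length, 12.4% hold TATAAA and 32.7% hold GGGCGG on either strand. None of the 3 windows holds the CCAAT box (CCAAT), which 33.8% of all windows hold, nor the AP-1 site (TGACTCA), which 4.46% hold, nor the Smad palindrome (GTCTAGAC), which 0.167% hold. The GC content was 64.4% for Bgn, 52.0% for Postn and 44.8% for Tnc, and the median of all windows was 52.4%. These are matches of letters, with 1 printed window per gene, and say nothing about binding.

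Because lysyl oxidases act on fibrillar collagens, each gene was set beside the mean log2(FPKM + 1) of 6 fibrillar collagen genes in the same library. Of these collagens 5 rose in HFD, led by Col1a1 (2.12), Col3a1 (1.94) and Col1a2 and Col5a2 (both 1.44), and 5 fell in CLE and 4 in LU. Bgn kept pace with them, and the difference between Bgn and the collagens changed by 0.03 in HFD against ND, by 0.04 in CLE against HFD and by 0.04 in LU against HFD. Fn1 (0.16, -0.11 and -0.24) and Fbn1 (0.14, -0.21 and -0.27) moved little more or less than the collagens, and their groups overlapped in all 3 comparisons. Lox fell behind the collagens by 1.22 on the log2 scale in HFD, and gained 0.87 on them in CLE and 0.43 in LU, with no overlap in any of these. Loxl2 behaved likewise (-0.74, 0.54 and 0.37), and Thbs1 had the widest shifts (-1.91, 2.05 and 1.50). Lox itself was not called in any of these comparisons (0.15, -0.13 and -0.23), and Loxl2 was called higher in HFD (0.63). Their negative values in HFD thus mean that the collagens rose by more, not that these genes fell. For Lox, Loxl2 and Thbs1 the two-sided exact permutation p was 0.1 in each comparison, which is the smallest that 3 against 3 allows. Loxl1 moved by -0.37, 0.28 and 0.16 with overlap in all 3, and Sparc, Tnc and Postn overlapped in HFD against ND but not in CLE or LU against HFD.

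**Figure D3:**
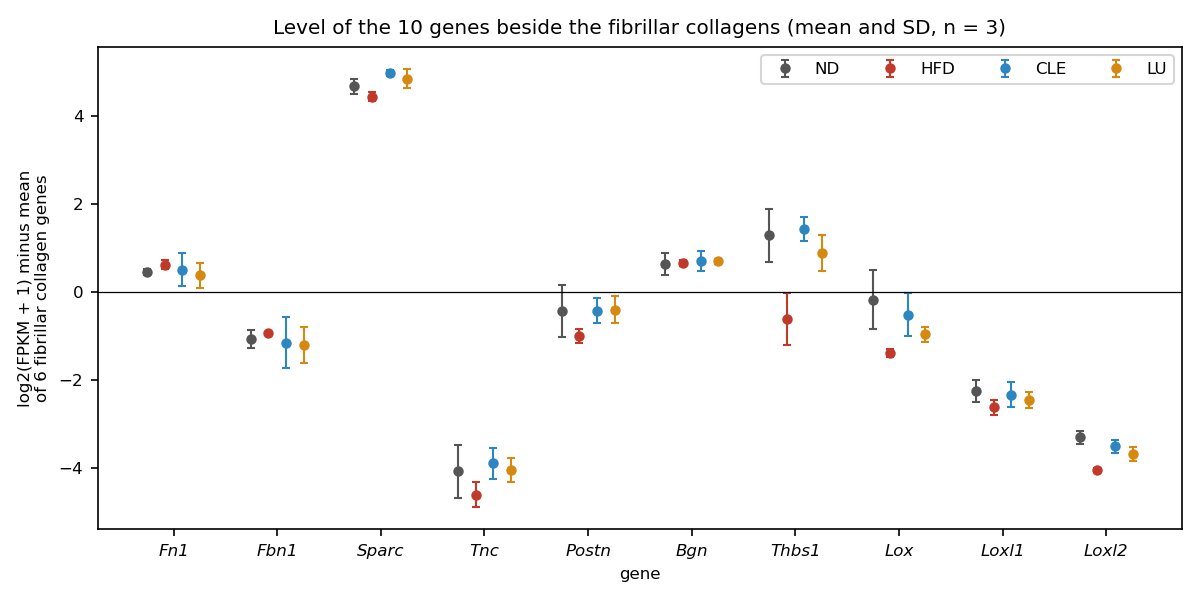
Difference between each gene and the mean of 6 fibrillar collagen genes in the same library, in log2(FPKM + 1) units (vertical axis), as the mean and SD of 3 libraries per group. Relative to the collagens, which rose in HFD, Lox goes from -0.16 in ND to -1.38 in HFD and Thbs1 from 1.30 to -0.61, while Bgn stays between 0.64 and 0.71 in all 4 groups.

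Set beside Pdgfra, a receptor that marks fibroblasts and progenitor cells, Fn1 was 1.18 and Bgn 1.05 log2 units higher in HFD than in ND, with no overlap (two-sided exact permutation p = 0.1 for both, the smallest possible). In CLE against HFD the groups did not overlap for Fn1 (-0.69), Fbn1 (-0.79) and Thbs1 (1.47), and in LU against HFD only for Thbs1 (1.50). Pdgfra itself was not called in these comparisons (0.35, -0.42 and -0.65, limma adjusted p between 0.0872 and 0.286). Of 8 fibroblast and progenitor markers, 2 were higher and 1 lower in HFD, and their summed level lay between 645 and 874 FPKM in the ND mice and between 582 and 694 FPKM in the HFD mice. Macrophage markers moved much more, since all 9 rose in HFD and all 9 fell in CLE and in LU. Their summed level was between 321 and 487 FPKM in ND, 2400 and 2790 in HFD, 564 and 882 in CLE, and 903 and 1060 in LU. Of the adipocyte markers, 7 of 8 fell in HFD, 7 rose in CLE and 3 in LU. Mesothelial markers fell in HFD (5 of 6), with a summed level between 9.85 and 59.7 FPKM in ND and between 2.32 and 7.29 FPKM in HFD. Of 6 endothelial markers, 1 fell in HFD and 3 rose in CLE and 4 in LU. No marker in these lists was at 0 in every library, and the part of these cells in the differences of the 10 genes was not tested.

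Genes that act on collagen before or beside the lysyl oxidases moved as follows, and 17 of 18 such genes were tested. In HFD, 8 rose and none fell. The largest rises were those of Pcolce2 (1.58) and Pcolce (1.32), which speed the removal of the collagen C-propeptide, and of Tgm2 (1.19), a transglutaminase that forms another kind of cross-link. Loxl3 (1.01), Bmp1 (0.99), the C-propeptide protease, Plod1 (0.79), a lysyl hydroxylase, Adamts2 (0.76), the N-propeptide protease, and Serpinh1 (0.68), the collagen chaperone, also rose. The other 9, Loxl4 (0.42), Adamts14 (0.44), P4ha1 (0.40), P4ha2 (-0.01), P3h1 (0.52), P3h3 (-0.004), Crtap (-0.14), Plod2 (0.56) and Plod3 (0.32), were not called. Of these, Loxl4, Adamts14, P4ha1, P3h1, Plod2 and Plod3 passed the p threshold but not the fold (limma adjusted p between 0.00368 and 0.0424).

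In CLE against HFD, 4 of these 17 fell, Pcolce (-1.01), Tgm2 (-0.77), Loxl3 (-0.74) and Bmp1 (-0.68), and in LU against HFD 3 fell, Loxl3 (-0.89), Pcolce (-0.78) and Tgm2 (-0.67). Loxl3 was near the filter, with a mean of 2.68 ± 0.743 FPKM in ND, 6.37 ± 1.40 in HFD, 3.37 ± 0.507 in CLE and 2.98 ± 0.717 in LU (SD, n = 3). The median over the 17 genes was 0.56, -0.34 and -0.17 in the 3 comparisons.

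Among 15 tested genes of elastic fibres and microfibrils, 6 rose and 1 fell in HFD. Mfap2 (1.81) and Mfap5 (0.94), glycoproteins of the microfibrils, and Fbln2 (1.63), a fibulin, rose most, and Ltbp2 (-0.61) fell. In CLE 3 fell, namely Mfap2 (-1.11), Mfap5 (-0.84) and Fbln2 (-0.61), and in LU only Mfap2 did (-0.68). The 2 that rose in CLE were Eln and Fbln5, elastin and a fibulin needed to assemble it, which were picked out here after their values were seen. Eln was at -0.53 in HFD against ND (limma adjusted p = 0.0632), 0.98 in CLE against HFD (adjusted p = 0.00513) and 0.84 in LU against HFD (adjusted p = 0.0154). Fbln5 was at -0.58 (limma adjusted p = 0.0139, under the fold threshold), 1.19 (adjusted p = 0.000317) and 1.08 (adjusted p = 0.000991). Both were thus called higher with either supplement, while Fbn1 was called lower.

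Of 8 tested small leucine-rich proteoglycans beside Bgn, Lum (1.97) and Prelp (0.77) rose in HFD and Podn (-2.18) fell. Lum, lumican, went down in CLE (-1.74) and LU (-1.11), and Podn, podocan, went up (1.12 and 0.73), and no other gene of the list was called in those comparisons. Of 20 tested matricellular and adhesive glycoproteins, 8 rose and 2 fell in HFD. Spp1, osteopontin, which macrophages also make, rose most (4.58, from a mean of 0.522 to 34.4 FPKM), followed by Ccn5 (2.73) and Cilp (2.04). Spp1 and Cilp fell in CLE (-3.33 and -1.53) and LU (-2.29 and -1.22), and Ccn5 was not called in either (-0.56 and -0.19). In CLE 5 genes of this list fell and 2 rose, and in LU 3 fell and 2 rose.

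Cell surface receptors of these proteins rose in 9 of 20 cases in HFD and fell in 7 in CLE and in 7 in LU, with none in the opposite direction. Cd44, a receptor for hyaluronan and osteopontin that leukocytes carry (3.33, -2.39 and -1.75 in the 3 comparisons), and the syndecans Sdc3 (2.37, -1.58 and -1.30) and Sdc1 (1.86, -1.10 and -1.04) rose most in HFD. Of 10 TGF-beta ligands, receptors and Smads, Tgfb1 (1.36) and Tgfbr1 (1.19) rose in HFD and fell in CLE (-0.93 and -1.02) and LU (-0.67 and -0.98). Tgfbr3 (0.80) and Smad7 (0.90), which were picked out after their values were seen, rose in CLE. Of 10 basement membrane glycoproteins, Lama2 (0.84) and Hspg2 (0.70) rose and Lamb2 (-0.66) fell in HFD, and none was called in CLE or LU.

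The deposited values are per transcript, and for Fn1 the transcripts did not move together. The 7 annotated transcripts with 44 or more exons summed to 31.8 ± 4.92 FPKM in ND, 161 ± 6.81 in HFD, 48.1 ± 22.9 in CLE and 56.5 ± 25.8 in LU (SD, n = 3). Fn1-203 was at 7.89, 7.19 and 6.11 FPKM in the ND mice and 77.1, 63.2 and 77.0 FPKM in the HFD mice, then at 16.6, 29.9 and 1.88 FPKM for CLE and 34.2, 10.97 and 1.03 FPKM in the LU mice. Its mean share of the Fn1 sum was 7.75% in ND and 26.5% in HFD. By contrast, an assembled row that covers only the 3' end of the gene (71585428 to 71602844) was at 31.1 FPKM in ND, 31.3 in HFD, 34.0 in CLE and 46.3 in LU on average. Had this row, the Fn1 row with the highest mean, stood for the gene, the log2 fold change would have been -0.01 in HFD against ND, 0.14 in CLE against HFD and 0.59 in LU against HFD. How fragments are split between overlapping transcripts is estimated, so no test was made on single transcripts.

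**Figure D4:**
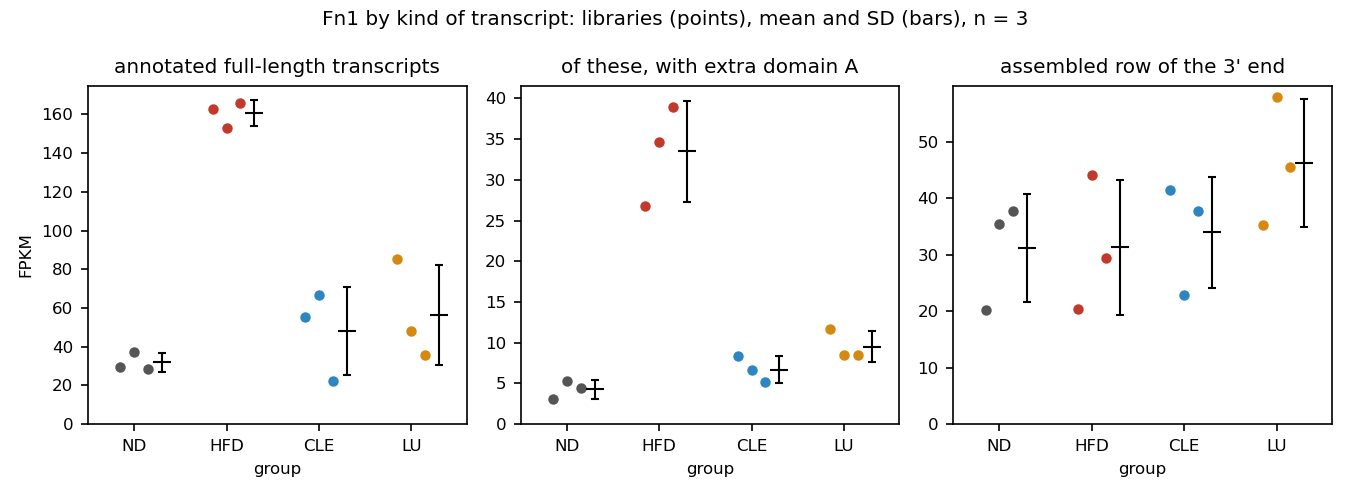
FPKM of Fn1 (vertical axes, each from 0) in each library (points) with the mean and SD of 3 (bars), for the 7 annotated full-length transcripts together, for the 4 of them with the extra domain A exon, and for the assembled row of the 3' end. The first 2 panels are highest in the HFD mice without overlap, while the 3' end row overlaps between all groups.

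Fibronectin is known for an alternatively spliced exon, extra domain A, which is left out of the form made by liver and kept in fibronectin made in tissues under repair. It was identified here as the exon of 270 bases at chr1:71603660-71603929, minus strand, which 4 of the 7 full-length transcripts hold. It is printed 5' to 3' from the GENCODE M21 transcripts to show which coding sequence separates these forms.
Fn1 extra domain A exon: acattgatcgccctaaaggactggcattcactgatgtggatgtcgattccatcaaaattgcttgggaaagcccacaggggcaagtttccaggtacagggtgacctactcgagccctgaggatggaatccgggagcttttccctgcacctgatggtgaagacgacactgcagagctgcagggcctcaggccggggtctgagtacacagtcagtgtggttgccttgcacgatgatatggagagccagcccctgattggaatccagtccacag

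The transcripts that hold it summed to 3.04, 5.35 and 4.40 FPKM in ND mice 2, 3 and 4 and to 26.8, 34.7 and 39.0 FPKM in HFD mice 12, 15 and 18, with 8.39, 6.59 and 5.11 FPKM in the CLE mice and 11.7, 8.44 and 8.44 FPKM in the LU mice. The HFD mice were far above all others. As a share of the 7 annotated full-length transcripts this was 13.3% ± 2.59 (SD, n = 3) in ND, 20.9% ± 3.89 in HFD, 15.9% ± 6.43 in CLE and 18.2% ± 4.94 in LU. The long assembled row of Fn1 (40.9 FPKM in HFD on average) is not counted here, as its exons were not known. The share was thus higher in HFD than in ND in each mouse, from 16.4% against 15.3% at the nearest. It overlapped with CLE and LU, where single mice reached 22.7% and 23.5%. The 7 full-length transcripts held 34% of the Fn1 sum in ND, 58.8% in HFD, 36.9% in CLE and 37% in LU on average. The share thus rests on unlike parts of the Fn1 sum in the groups compared.

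Fbn1 was split in a similar way. Fbn1-201 held 59.2% of the Fbn1 sum in ND and 77.3% in HFD, and the rest was nearly all an assembled row of the 3' part. This row held 40.8% in ND, 22.7% in HFD, 32.9% in CLE and 35.2% in LU on average, although its FPKM was highest in HFD (21.3). The Fn1 row of the 3' end held 32.1%, 11.4%, 27.1% and 32.2% of its gene, in the same order. Both shares were lowest in HFD, and whether this reflects coverage of the libraries was not tested. Postn-204 held between 73.5% and 79.0% and Thbs1-201 between 86.7% and 88.0% of their genes in all groups, and Loxl1 had 1 transcript. For Bgn, Bgn-201 held 66.6% in ND and 54.6% in HFD, and an assembled form of Bgn-207 rose from 23.7% to 37.8%. Sparc was led by Sparc-201, from 37.3% in HFD to 45.2% in ND, and Sparc-206 rose from 14.1% to 25.0%. Lox was split between an assembled row (61.5% in ND, 50.1% in HFD) and Lox-201 (34.0% and 43.5%). For Tnc, 2 assembled forms of Tnc-203 held 36.8% and 29.3% in HFD, and without assembled rows its difference between HFD and ND was 0.43 (limma adjusted p = 0.214). Loxl2 rested on an assembled row with 95.2% to 98.4% of its sum, which begins 218 kb before the annotated start and spans 11 other annotated genes, and whether its values hold reads of these was not tested. Exons of Fbn1 and Tnc overlap with opposite-strand genes of low level (Gm9913, mean 0.656 FPKM, and 8030451A03Rik, mean 0.292 FPKM). Those of Fn1, Lox, Loxl2 and Thbs1 overlap with opposite-strand genes, and Loxl2 also with the same-strand Mir6950, for which no value was held, and the sources used here do not say whether strand was kept.

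The genes most like each of the 10 over the 12 libraries were found by Pearson's r of log2(FPKM + 1). This r is a description, since the libraries share group means, and r of the deviations from the group means is given after it. Fn1 was most like Smc2 (0.979, then 0.823) and Fstl1 (0.976, then 0.806). Fbn1 was most like Fstl1 (0.978, then 0.950) and Fn1 (0.971, then 0.932). Bgn was nearest to Col1a1 (0.987, then 0.731) and C1qtnf6 (0.986, then 0.898), and Loxl1 again to Fstl1 (0.981, then 0.889) and to Vamp7 (0.979, then 0.724). For Sparc the nearest were Nek6 (0.987, then 0.930) and Anxa5 (0.985, then 0.917), and Loxl2 was close to Col5a2 (0.943, then 0.800). Tnc was nearest to Myh9 (0.974, then 0.969) and Zbtb42 (0.939, then 0.906), and Postn to Numb (0.911, then 0.791) and Srgn (0.893, then 0.841). Thbs1 stood nearest to Acta2 (0.896, then 0.855) and Zfp85 (0.895, then 0.889), and Lox to Amot (0.927, then 0.938) and Ubr2 (0.867, then 0.870). Fn1 and Fbn1 were the only pair of the 10 genes in which one was among the 2 nearest genes of the other.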

How the data were processed

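Total RNA of whole eWAT from 12 mice was prepared with an Illumina TruSeq kit and sequenced by the authors as paired ends. The authors deposited FPKM values per transcript, 152210 transcripts with 1 column per library. Per the submitters' processing notes the tools were CASAVA 1.8.2, Bowtie2 2.2.3, TopHat2 2.0.12 and Cufflinks 2.2.1. The genome build was not given in the sources used here. Left out were 3 of the 15 FPKM columns, which match no sample, and the columns that mark the authors' own calls. FPKM are scaled to each library's total and hold no counts, so the authors' test on read counts was not repeated, and no counting interval could be given.

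Rows with an Ensembl transcript identifier, plain or with class code = or j, were matched to GENCODE M21 (GRCm38) and summed per gene. Of 78786 plain identifiers, 77000 were found there, 87.6% of them with identical ends. All 86 rows of the 10 genes were the same by name and by identifier. The filter asked for 1 FPKM or more in 3 or more libraries. limma 3.58.1 (R 4.3.3) was fitted to log2(FPKM + 1) of the 12 libraries together, 1 coefficient per group, without trend or covariate. Differences of single values between groups of 3 were given a two-sided exact permutation test. The fit was tested on simulated data before use. Promoter windows are those of RefSeq, and the GENCODE transcripts gave the exon sequence. Python 3.11.15 with numpy 2.4.6, pandas 2.3.3 and, for plots, matplotlib 3.10.9 was used.

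The 10 genes, the lists and the tests were chosen with earlier results of these data known. The genes named are the 10, from each list up to 3 with the largest absolute log2 fold change among those called in HFD against ND, all tested genes of the collagen-modifying list, the 2 most alike genes of each of the 10 (of which 1 is not reported here), and transcripts with at least 10% of a gene's sum in any group. Outside this rule, Eln, Fbln5, Tgfbr3, Smad7, Ltbp2, Pdgfra, Acta2 in its CLE comparison and Cidec were named after their values were seen, and Col5a2 ties with Col1a2. Markers of epididymis (1 of 6 tested), liver (4 of 5) and skeletal muscle (0 tested) were also listed, and of these 1 liver gene was called lower in HFD and 1 higher in CLE. The alternatives were another pseudocount (0.1), 2 other filters, 3 scalings, array weights, a variance trend, fitting the compared groups alone, the letter R (as covariate, or its libraries left out), the adjusted p alone, 2 other ways to form gene values, a replicate block, and leaving out each library.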

Additional observations from a re-analysis of the deposited data

How the results depend on the processing

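Of 1614 refitted values of the 10 genes, 1498 kept their direction and their side of the threshold, 76 fell short of it, 10 passed it and 30 changed sign. The count of called genes in HFD against ND ranged from 6 to 8 with each library left out, in CLE against HFD from 4 to 5, in LU against HFD from 1 to 4, in CLE against ND from 0 to 1 and in LU against ND from 2 to 5, and it was 0 in CLE against LU throughout. In LU against HFD it was 1 with the transcript of the highest mean. In CLE against ND it was 0 with a pseudocount of 0.1, no filter, only the groups compared, array weights, the R covariate, the transcript of the highest mean or no assembled rows, and 2 by adjusted p alone. In LU against ND it was 2 with no filter, only the groups compared, without the R libraries or with the transcript of the highest mean, and 1 without assembled rows. Signs changed for Thbs1 in LU against ND with array weights (-0.025) and in HFD against ND without the R libraries (0.018), and for Postn in LU against HFD with the R covariate (0.018) and without the R libraries (0.019). Without the R libraries ND is mouse 2 alone, so those values compare with 1 mouse that is assumed to vary like the other groups. Lox changed sign there in CLE against ND (-0.476), HFD against ND (-0.212) and CLE against LU (-0.116), and with the R covariate in CLE against ND (-0.016). With the transcript of the highest mean, Fn1 was at -0.009 in HFD against ND, 0.138 in CLE against HFD and 0.588 in LU against HFD, as its 3' end row stood for the gene, and Lox was at -0.152 in HFD against ND, in CLE against LU at -0.050 and in CLE against ND at -0.221. Without assembled rows Loxl2 did not pass the filter on low values and was not tested. Tnc was then at 0.157 in CLE against HFD, 0.047 in LU against HFD and 0.110 in CLE against LU, and Lox at 0.049 in LU against ND. With each library left out, Lox ranged from -0.083 to 0.335 in HFD against ND, -0.211 to 0.207 in CLE against ND, -0.309 to 0.109 in LU against ND and -0.039 to 0.218 in CLE against LU, Tnc in LU against HFD from -0.257 to 0.042, Postn from -0.246 to 0.077, and Thbs1 in CLE against LU from -0.016 to 0.399. Except where construction shows it, the cause was not tested. Mouse numbers recur in ND, CLE and LU but not in HFD, and were taken to name mice only. Same-numbered libraries deviated together with r between -0.099 and 0.189, and other pairs with r between -0.261 and 0.332. So few same-numbered pairs cannot show whether the numbers tie mice together. With the mouse number as a replicate block (correlation 0.087) the counts were 8 in HFD against ND, 5 and 3 in CLE and LU against HFD, 0 between CLE and LU, and 1 and 4 in CLE and LU against ND, the same as without it. Depth is unknown, which limits what can be said of genes of low FPKM such as Tnc, Loxl2, Loxl3 and Loxl4, and 3 mice per group limit all.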
